A study of Homo sapiens with 3 samples.

Results

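The promoters of 10 genes of TGF-beta and activin signalling were followed through promoter capture Hi-C (PCHi-C) of hESC-CMs. These cells are cardiomyocytes made in culture from WA09 (H9), an established line of human embryonic stem cells. The genes were *TGFB1*, *TGFB2*, *TGFB3*, *INHBA*, *NODAL*, *LEFTY1*, *LEFTY2*, *TGFBR1*, *TGFBR2* and *TGFBR3*. In this assay, pieces of DNA held near each other in fixed nuclei are cut by HindIII and joined, and the joined pieces that contain a promoter are enriched and sequenced. A gene was represented by every promoter fragment, a HindIII fragment listed as a captured end, that holds an annotated transcript start of that gene. This gave 11 of the 19075 promoter fragments of the series, 1 for each gene and 2 for *INHBA*, with 146 of its 200587 contacts.

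All 3 biological replicates came from WA09 cells at passage 32 and passed through the same kit differentiation and lactate enrichment before fixation. They form 1 group with no second condition, so no test between groups was possible, and results from 1 cell line describe that line. Cardiac identity was checked by the submitters with *MYH7* and *TNNT2*, and contact calls measure no expression, so that it could not be checked again here. A contact is a pair of fragments with a CHiCAGO score, which measures the excess of read pairs over a background that falls with distance, and the lowest score listed was 5. A contact that is not listed scored under 5 or was not scored, and is not shown to be missing. Since the assay averages over many nuclei, a contact made in few cells and a weaker contact made in many cells cannot be told apart. Files held 109731 to 112473 contacts per replicate, and read depth was not analysed here.

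TGF-beta ligands, activins and NODAL are secreted dimers that bring receptor kinases together at the cell surface, and the receptors then phosphorylate SMAD proteins that enter the nucleus and act on transcription. LEFTY proteins are secreted inhibitors of NODAL, and betaglycan, the product of *TGFBR3*, presents ligand to the signalling receptors. In the heart, NODAL and activin signals pattern the mesoderm from which cardiomyocytes arise, while TGF-beta takes part in the formation of the valves and in fibrosis.

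Sequences are shown for 5 promoter-interacting regions (PIRs), each among the highest-scoring PIRs of its gene that were called in all 3 replicates. These PIRs were picked and are not always the highest. By mean score, that of *TGFB3* had rank 3 in its gene and that of *TGFB2* rank 2. The sequences were read from the forward strand of GRCh37. Capitals at the 5′ end mark AGCTT, the part of the HindIII site that the enzyme leaves on the fragment, and any further capitals mark a match to a searched motif. Both ends of all 133 promoter fragments and PIRs of these genes lay at HindIII sites.
*INHBA* PIR of 787 bases, first 300, chr7:40370779-40371078, in an intron of *SUGCT*: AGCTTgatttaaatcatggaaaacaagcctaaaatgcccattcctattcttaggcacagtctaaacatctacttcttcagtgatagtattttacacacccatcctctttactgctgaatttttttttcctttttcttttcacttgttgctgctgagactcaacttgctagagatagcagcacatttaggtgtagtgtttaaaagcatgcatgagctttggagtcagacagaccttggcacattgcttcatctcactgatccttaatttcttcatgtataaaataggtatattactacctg
*INHBA* PIR, all 251 bases, chr7:40271112-40271362, in an intron of *SUGCT*: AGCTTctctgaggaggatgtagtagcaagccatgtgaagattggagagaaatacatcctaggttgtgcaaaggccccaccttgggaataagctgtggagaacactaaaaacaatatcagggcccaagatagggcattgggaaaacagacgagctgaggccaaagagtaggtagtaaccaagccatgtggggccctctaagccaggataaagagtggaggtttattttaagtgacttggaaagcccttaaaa
*TGFB3* PIR, all 265 bases, chr14:76181738-76182002, in an intron of *TTLL5*: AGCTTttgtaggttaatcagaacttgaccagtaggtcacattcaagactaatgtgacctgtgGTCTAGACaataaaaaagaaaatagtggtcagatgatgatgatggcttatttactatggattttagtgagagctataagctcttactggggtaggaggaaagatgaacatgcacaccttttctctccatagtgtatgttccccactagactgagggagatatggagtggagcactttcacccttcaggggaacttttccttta
*LEFTY1* and *LEFTY2* PIR of 323 bases, first 300, chr1:225652472-225652771, over an exon of the long non-coding RNA *LINC02765*: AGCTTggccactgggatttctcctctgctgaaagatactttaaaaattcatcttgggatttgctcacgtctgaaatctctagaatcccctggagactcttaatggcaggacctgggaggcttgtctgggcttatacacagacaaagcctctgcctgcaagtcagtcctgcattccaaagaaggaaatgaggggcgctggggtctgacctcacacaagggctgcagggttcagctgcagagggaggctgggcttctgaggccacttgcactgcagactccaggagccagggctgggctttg
*TGFB2* PIR of 2298 bases, first 300, chr1:219739841-219740140, in no annotated gene: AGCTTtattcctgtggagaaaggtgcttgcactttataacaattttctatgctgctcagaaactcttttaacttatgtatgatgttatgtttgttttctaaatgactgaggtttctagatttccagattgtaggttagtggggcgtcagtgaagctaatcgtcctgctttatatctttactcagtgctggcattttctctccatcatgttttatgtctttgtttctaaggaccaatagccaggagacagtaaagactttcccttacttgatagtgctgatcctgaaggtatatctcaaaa

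Motifs were searched as letters on both strands, with N for any base. The palindrome GTCTAGAC, to which SMAD proteins can bind, occurred at 1 place in the *TGFB3* PIR and in none of the other windows. It was present in 0.157% of 115553 PIRs of all genes when their first 265 bases were searched. A core of the CTCF motif (CCNNNAGNNGGC), a FOXH1 motif (TGTNNATT) and a GATA motif (AGATAAG) had no match in the 5 windows. These motifs occurred in 2.62%, 25.8% and 5.33% of the first 300 bases of 114044 PIRs. A match or its lack in such a window describes the letters alone. The shares over all PIRs are no test of a match, since the 5 windows were picked.

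The promoters of *TGFB2* and *INHBA* are shown because these genes had the most contacts called in all 3 replicates, 15 each. For *INHBA* the 15 are summed over 2 fragments. The fragment that holds the *INHBA* promoter shown had 10, against 11 for the *TGFB3* fragment. They were taken from RefSeq (GRCh38.p14), in the direction of transcription, from 250 bases before to 25 bases after the start, and the same letters were found once in GRCh37. Capitals mark the match to TATAAA, which was present in 11.1% of 35116 RefSeq promoters of this length.
*TGFB2* promoter, forward strand, GRCh37 chr1:218518428-218518702: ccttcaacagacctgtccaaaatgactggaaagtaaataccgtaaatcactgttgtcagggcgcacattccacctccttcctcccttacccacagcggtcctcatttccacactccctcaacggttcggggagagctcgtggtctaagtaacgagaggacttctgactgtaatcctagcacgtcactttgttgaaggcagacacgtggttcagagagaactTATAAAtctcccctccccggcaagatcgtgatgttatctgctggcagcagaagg
*INHBA* promoter, reverse strand, GRCh37 chr7:41742664-41742938: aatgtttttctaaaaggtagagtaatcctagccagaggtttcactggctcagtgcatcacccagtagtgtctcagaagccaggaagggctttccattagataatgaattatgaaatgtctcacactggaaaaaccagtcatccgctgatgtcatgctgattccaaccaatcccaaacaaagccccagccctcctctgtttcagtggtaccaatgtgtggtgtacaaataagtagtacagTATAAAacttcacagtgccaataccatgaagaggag

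RefSeq promoters were matched for 8 of the 10 genes, and *LEFTY1* and *LEFTY2* were not matched. The *NODAL* and *TGFBR3* promoters of RefSeq lay in HindIII fragments that are not listed, so the contacts of these genes come from fragments that hold another annotated start. For *LEFTY1* too, the fragment holding the canonical start (GRCh37 position 226076846 of chromosome 1) was not listed, and its contacts are those of the fragment from 226098282 to 226100464, which holds 1 start of a transcript not annotated as protein-coding. Several fragments also hold starts of other genes, namely *TMEM91* with *TGFB1*, *TGFB2-AS1* with *TGFB2*, *IFT43* with *TGFB3* and *INHBA-AS1* with both *INHBA* fragments. A contact of such a fragment cannot be assigned to 1 of its genes.

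All 3 replicates called 57 of the 146 contacts, a further 27 were called by 2 of them and 62 by 1. The share in all 3 was 39.0% (95% Wilson interval 31.5 to 47.1%, covering counting error only), where 24% of all contacts of the series were called in all 3 replicates. Contacts of 1 fragment share that fragment and are not independent of each other. Replicate 1 held 109 of the contacts, replicate 2 held 87 and replicate 3 held 91 (95.7 ± 11.7, SD, n = 3). Mean scores had a median of 8.68 for contacts in all 3 replicates, 6.33 for those in 2 and 5.93 for those in 1. The calls made in a single replicate often lay beside others, since 31 of the 62 had a call of the same promoter fragment within 5 kb in another replicate.

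The contacts were long. Over the same chromosome their median distance, taken between fragment midpoints, was 588 kb in the union of the replicates, against 716 kb for all contacts of the series. Among contacts called in all 3 replicates the order turned, with a median of 717 kb for these genes and 395 kb for the series. Contacts of over 1 Mb made up 24 of the 57 (42.1%), against 20.2% of all contacts called in all 3 replicates, and these 24 belonged to *INHBA* (14) and *TGFB2* (10). For *INHBA*, 5 PIRs called in all 3 replicates with both of its fragments count once for each fragment. No contact fell within the body of its own gene, and no contact joined 2 of the 10 genes. The matching shares over all contacts of the series are not given, so neither can be called particular to these genes. Another promoter fragment was the partner in 18 contacts (12.3%), close to the 9.59% of all contacts of the series, and 5 of the 18 were called in all 3 replicates. Both contacts with another chromosome were called in 1 replicate.

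**Figure D1:**
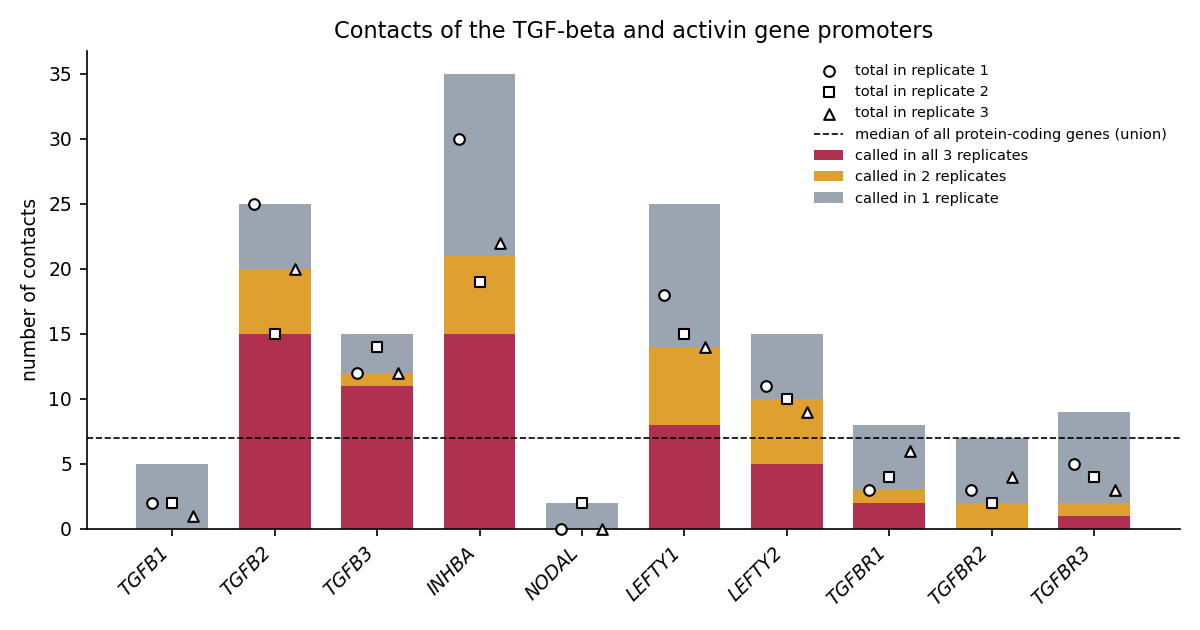
Number of contacts of each gene (y axis), with bars split by the number of replicates that called the contact and open symbols for the total in each replicate. The dashed line is the median of 7 contacts over protein-coding genes with a listed contact. *TGFB2* and *INHBA* have 15 contacts each in all 3 replicates, those of *INHBA* summed over its 2 fragments, and *TGFB1*, *NODAL* and *TGFBR2* have none.

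The genes differed widely in the number of contacts. *INHBA* had 35 over its 2 fragments, *TGFB2* and *LEFTY1* 25 each, *TGFB3* and *LEFTY2* 15 each, *TGFBR3* 9, *TGFBR1* 8, *TGFBR2* 7, *TGFB1* 5 and *NODAL* 2, where the median of 15515 protein-coding genes with a listed contact was 7. The 35 contacts of *INHBA* were with 23 PIRs, since 12 PIRs called with both fragments count once for each. Its fragment with the canonical start alone had 21 contacts. At least 1 contact was called in all 3 replicates for 7 of the 10 genes, against 55.9% of those protein-coding genes. *INHBA* had more contacts than 92.9% of them and *TGFB2* than 86.5%, while *NODAL* had more than 8.52%. Neighbours in this order were often not separated: *INHBA* with 19 to 30 contacts per replicate overlapped *TGFB2* with 15 to 25, as did *LEFTY1* with 14 to 18. The 3 receptor genes, with 2 to 6 per replicate, overlapped each other.

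*TGFB2* encodes the TGF-beta ligand most closely tied to the formation of the cardiac valves. Its fragment, on chromosome 1 from 218516401 to 218521986, had 25 contacts in replicate 1, 15 in replicate 2 and 20 in replicate 3, and 15 were common to all 3. All 25 lay downstream of the gene, and 24 fell into 6 blocks of neighbouring fragments between 426 and 1325 kb away. The blocks spread over a gene desert that holds *LYPLAL1*, a lysophospholipase-like gene, and *ZC3H11B*, and 22 of the 25 PIRs overlapped no protein-coding gene. The highest score was with the promoter fragment of *LYPLAL1* (219345885 to 219348317), 828 kb away, at 18.2 in replicate 1, 13.22 in replicate 2 and 13.5 in replicate 3. A PIR at 1222 kb (219739841 to 219742138), whose first bases are given above, scored 13.47, 13.67 and 13.62. These 3 values lay close together and within the range of the *LYPLAL1* contact. A PIR at 1317 kb (219834718 to 219836813), with a start of the non-coding gene *AC096643.1*, scored 16.69, 11.89 and 11.2. It belonged to a block of 7 PIRs, 5 of them called in all 3 replicates, between *ZC3H11B* and *SLC30A10*, which encodes a manganese transporter. The nearest block, 426 to 434 kb away, had 4 PIRs and 1 in all 3 replicates, with scores of 6.59, 6.39 and 6.78. Of the 25 PIRs, 11 were called for no other promoter fragment. The promoter fragment of *RRP15*, a ribosomal RNA processing gene 62.6 kb from that of *TGFB2*, shared the most PIRs with it, 9 in all. These were 36% of the PIRs of *TGFB2* and 37.5% of the 24 of *RRP15*, and 1 of the 9 was called in all 3 replicates for both.

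*INHBA* encodes the subunit of which activin A is built. Its upstream promoter fragment (chromosome 7, 41739704 to 41746701) holds the canonical start and had 21 contacts, 10 of them in all 3 replicates, while its downstream fragment (41727444 to 41736387) holds 1 start of a transcript not annotated as protein-coding and had 14, 5 of them in all 3. Together they had 30 contacts in replicate 1, 19 in replicate 2 and 22 in replicate 3. All 35 pointed downstream of the gene, at 636 to 1485 kb, and 34 of them, with all 15 of those called in all 3 replicates, overlapped *SUGCT*, which encodes a mitochondrial CoA transferase. Introns alone were touched by 32. No protein-coding gene lies wholly between *INHBA* and the *SUGCT* PIRs called in all 3 replicates. None of the 23 PIRs of *INHBA* was called with a promoter fragment of another gene, which held for 10 of the 15 PIRs of *TGFB3* and 4 of the 25 of *LEFTY1*.

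**Figure D2:**
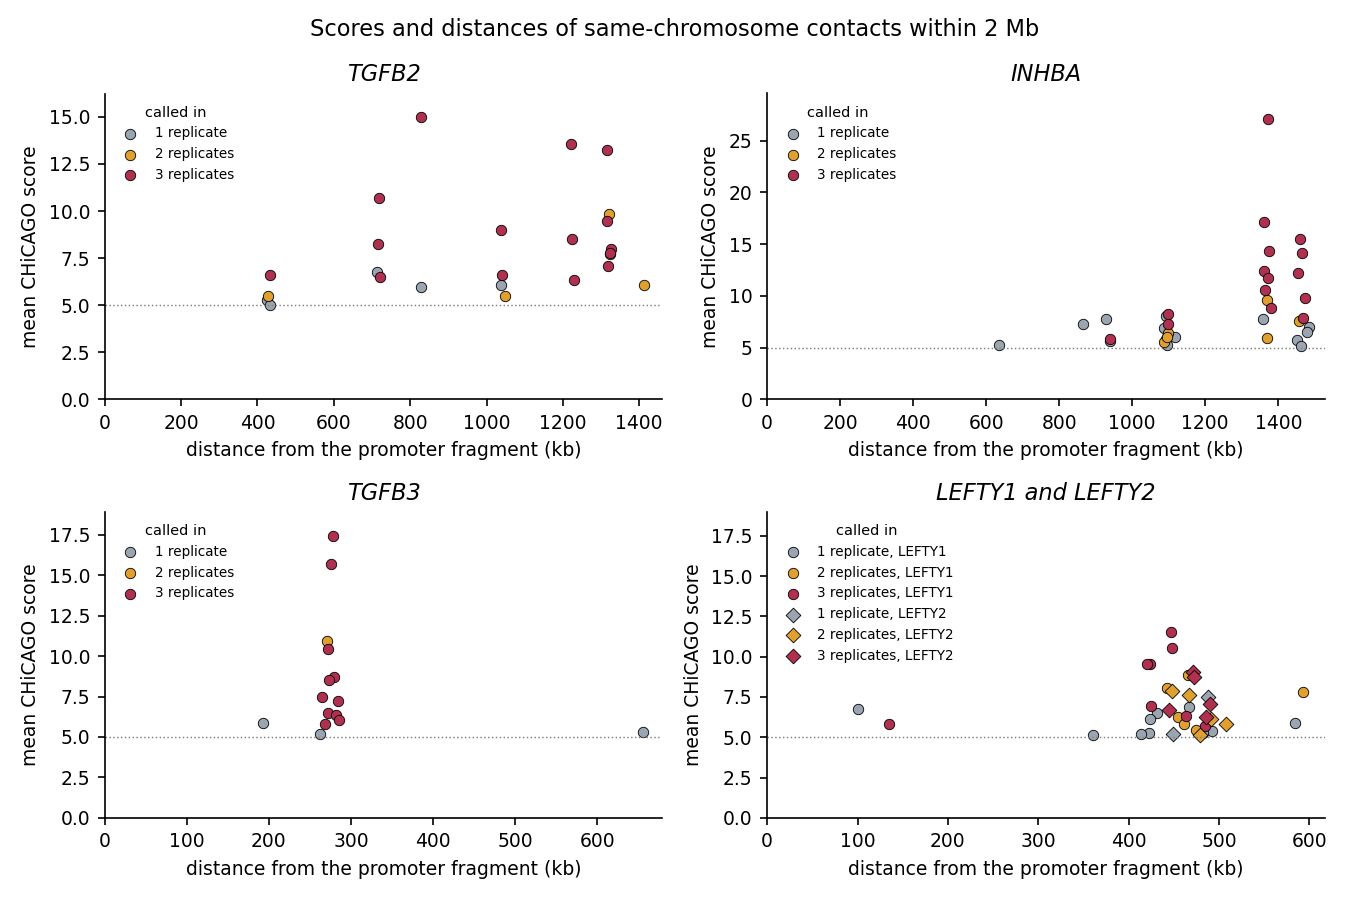
Mean CHiCAGO score (y axis, over the replicates that called the contact) against distance from the promoter fragment in kb (x axis) for same-chromosome contacts within 2 Mb, coloured by the number of replicates that called them. The dotted line is the lowest listed score of 5. *TGFB2* contacts fall into narrow clusters out to 1325 kb, *INHBA* contacts reach a mean of 27.1 at 1372 kb, and those of *TGFB3* form 1 cluster near 275 kb.

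The highest score of all 146 contacts was at a PIR of 787 bases in *SUGCT* (40370779 to 40371565), 1372 kb from the upstream *INHBA* fragment. It scored 27.87, 28.15 and 25.17 in replicates 1, 2 and 3 with the upstream fragment, and 16.85, 18.49 and 16.12 with the downstream one. The ranges did not overlap, and the difference was 9.91 ± 1.01 (SD, n = 3). The order was the opposite at the PIR of 251 bases (40271112 to 40271362) at 1472 kb. There the upstream fragment scored 13.74, 8.23 and 7.45 and the downstream fragment 16.25, 14.36 and 16.03, without overlap and with a difference of -5.74 ± 3.05 (SD, n = 3). At the other 3 PIRs called in all 3 replicates with both fragments the ranges overlapped. An exact paired permutation test over 3 replicates cannot go below p = 0.25 (two-sided), so that none is given. The background of the score is fitted for each captured fragment, so a higher score is not a measure of more frequent contact. In all, 12 PIRs were shared by the 2 fragments, 57.1% of those of the upstream and 85.7% of those of the downstream fragment. The fragments lie 11.3 kb apart.

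The *INHBA* PIRs formed separate blocks. With the upstream fragment, 5 PIRs lay in a block of 19.1 kb at 1369 to 1381 kb, 4 of them called in all 3 replicates, and 6 PIRs in a block of 25.9 kb at 1462 to 1485 kb, 3 of them called in all 3. Nearer to the gene, a block of 8 PIRs at 1092 to 1117 kb had 2 in all 3 replicates, and 1 of these, a PIR of 534 bases (40645814), scored 8.63, 8.77 and 7.44. The downstream fragment had PIRs in the first 2 of these blocks and 2 PIRs in the nearer one, neither of which was called in all 3 replicates. The nearest *INHBA* PIR in all 3 replicates (40803375) was 939 kb from the upstream fragment and scored 5.39, 5.85 and 6.22, close to the lowest listed score.

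*TGFB3*, a ligand of the palate and heart, had nearly all of its contacts in 1 narrow stretch. Its fragment (chromosome 14, 76446366 to 76460936) had 12, 14 and 12 contacts in replicates 1, 2 and 3, and 11 of 15 (73.3%, Wilson interval 48.0 to 89.1%) were called in all 3. Within 25.1 kb of *TTLL5* (76168134 to 76193239), a tubulin glutamylase gene, lay 13 of the PIRs and all 11 of those in all 3 replicates, 262 to 285 kb downstream of *TGFB3*. The highest, a PIR of 1486 bases (76175423 to 76176908) over an exon of *TTLL5*, scored 12.74, 21.82 and 17.65. The next fragment but one (76176920 to 76178761) scored 15.72, 17.69 and 13.64, and these ranges overlapped. The PIR of 265 bases that holds the GTCTAGAC palindrome scored 11.46, 9.94 and 9.86, all under the lowest value of both. Of the 15 PIRs, 10 were called for no other promoter fragment. A promoter fragment with starts of *IFT43* and *TTLL5*, 84.3 kb away, shared 5 PIRs, 33.3% of those of *TGFB3* and all 5 of its own. Since the *TGFB3* fragment itself also holds an *IFT43* start, its contacts could not be assigned to either gene alone.

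*TGFB1*, the ligand best known for fibrosis, had 2 contacts in replicate 1, 2 in replicate 2 and 1 in replicate 3, and no contact was called in more than 1 replicate. Its highest score, 8.55 in replicate 1, was with the promoter fragment of the zinc finger gene *ZNF805*, 15.9 Mb away. Then came a PIR over *SYT5*, a synaptotagmin gene, at 13.8 Mb, with 8.05 in replicate 2. None of the 5 had a call of the *TGFB1* fragment within 5 kb in another replicate, and none was listed in the calls on the merged replicates. All 5 PIRs were also called for other promoter fragments, with 2 to 18 promoter fragments in all. Of the 5 PIRs of *TGFB1*, 2 were shared with the promoter fragment of *ARHGEF1*, which had 24. *NODAL* had contacts in replicate 2 only. They joined its fragment (chromosome 10, 72206540 to 72208016) to an intron of *PTCHD1* on the X chromosome, with a score of 9.63, and to the fragment of *TBATA*, 339 kb away, with a score of 5.3. The *TBATA* fragment, 1 of its 2 PIRs, was also called with the promoter fragment of *PPA1*, a pyrophosphatase gene.

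*LEFTY1* and *LEFTY2* are neighbours on chromosome 1 and encode NODAL inhibitors. The *LEFTY1* fragment had 18, 15 and 14 contacts in replicates 1, 2 and 3 and 8 of 25 in all 3, and the *LEFTY2* fragment (226110293 to 226136406) had 11, 10 and 9, with 5 of 15 in all 3. Their midpoints lie 24.0 kb apart. The fragments had 12 PIRs in common, 48% of those of *LEFTY1* and 80% of those of *LEFTY2*, and no promoter fragment of another gene shared more with either. All 12 lay in 1 stretch that runs from *LBR*, the lamin B receptor gene, across *LINC02765* to *ENAH*, which encodes an actin regulator. That stretch held 19 of the PIRs of *LEFTY1* (414 to 493 kb away) and 12 of *LEFTY2* (445 to 508 kb away).

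Among contacts called in all 3 replicates, the PIR of 323 bases in *LINC02765* had the highest mean score for both genes. This PIR also holds a start of *ENSG00000282418*, a gene not annotated as protein-coding. The PIR scored 10.62, 13.32 and 10.67 with *LEFTY1* and 8.26, 8.3 and 10.63 with *LEFTY2*, and the ranges overlapped. It was higher with *LEFTY1* in each replicate, by 2.36, 5.02 and 0.04. The adjoining PIR (225650333 to 225652471) scored 10.06, 11.41 and 10.07 with *LEFTY1* and 7.73, 8.96 and 9.53 with *LEFTY2*. Here the ranges did not overlap, and *LEFTY1* was again higher in each replicate, by 1.77 ± 1.07 (SD, n = 3). A PIR over an *ENAH* exon (225677679 to 225679742) was the third called in all 3 replicates for both genes, with 8.45, 8.17 and 11.98 for *LEFTY1* and 5.36, 8.45 and 6.28 for *LEFTY2*, which overlapped. The other 9 shared PIRs scored 5.04 to 11.51 with *LEFTY1* and 5.07 to 9.06 with *LEFTY2* where they were called. Other promoters contacted the same PIRs. The PIR of 323 bases was called with 6 promoter fragments in all, and the 28 PIRs of either gene with 1 to 9 and a median of 3.

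**Figure D3:**
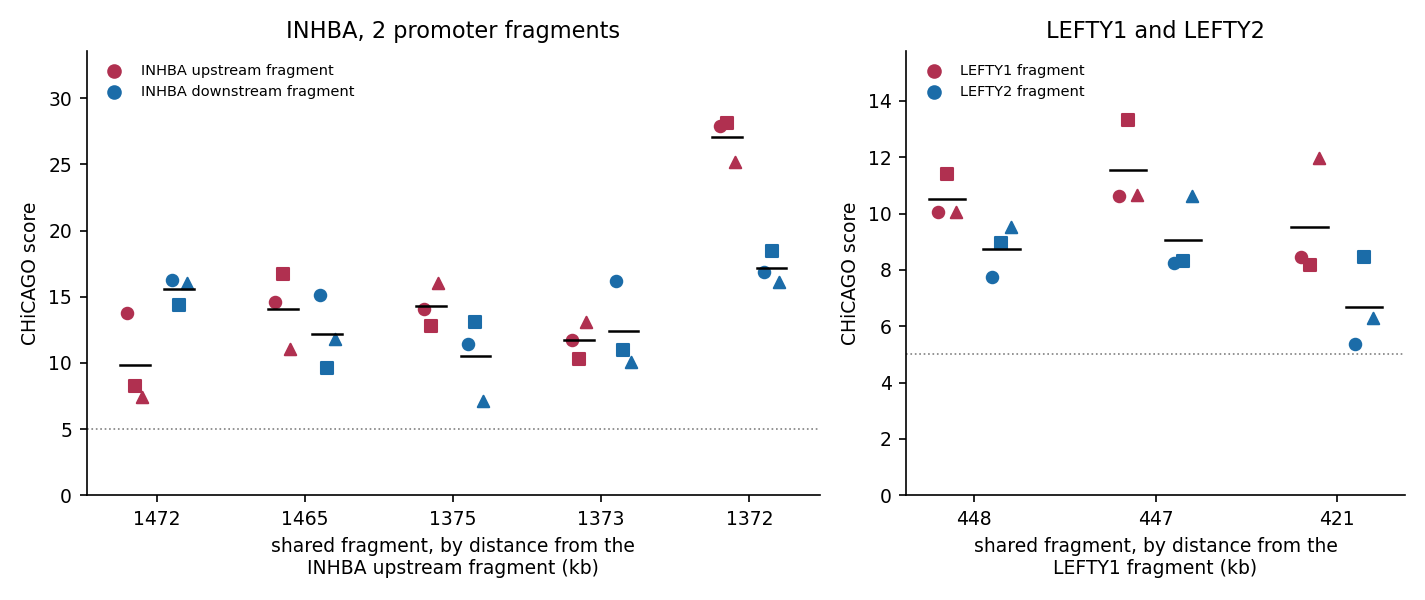
CHiCAGO scores (y axis) of the PIRs called in all 3 replicates with both *INHBA* promoter fragments (left) and with both *LEFTY1* and *LEFTY2* (right), ordered by position and labelled with the distance in kb (x axis). Circles, squares and triangles are replicates 1, 2 and 3, black lines are means and the dotted line is the lowest listed score of 5. The 2 *INHBA* fragments differ without overlap at the PIRs at 1372 and 1472 kb, in opposite directions.

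Outside this stretch, *LEFTY1* contacted the promoter fragment of *SRP9*, a signal recognition particle gene, at 135 kb in all 3 replicates (6.91, 5.35 and 5.27). The 2183 bases of the *LEFTY1* fragment had no near-identical copy elsewhere in GRCh37 at the limits searched, of 95% identity over 500 bases. The *LEFTY2* fragment did, with 958 aligned bases of 97.1% identity at 226075111 to 226076059, within *LEFTY1*. It was the 1 fragment with such a copy among 60 searched, the promoter fragments and the PIRs in all 3 replicates. The part of this copy in the contacts of *LEFTY2* was not tested.

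The 3 receptor genes had few contacts that recurred. *TGFBR1*, the kinase receptor that phosphorylates SMAD2 and SMAD3, had 3, 4 and 6 contacts in replicates 1, 2 and 3, and 2 of 8 were called in all 3. The first joined its fragment (chromosome 9, 101862292 to 101874984) to the promoter fragment of the non-coding gene *ENSG00000267026* (101633476 to 101635512), 234 kb upstream, at 10.51, 10.93 and 11.43. The second, 298 kb upstream, was with the fragment at the start of *GALNT12*, a glycosyltransferase gene, and scored 6.61, 7.79 and 9.54. All scores of the first were above those of the second. A contact with the promoter fragment of *COL15A1*, a collagen gene 164 kb upstream, was called in replicates 2 and 3 (7.58 and 6.19), and the other 5 contacts were called in 1 replicate. Of these 8 contacts 5 were with promoter fragments, more than for any other of the 10 genes.

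*TGFBR2* encodes the receptor kinase that binds TGF-beta and activates TGFBR1. It had 3, 2 and 4 contacts in replicates 1, 2 and 3, and none was called in all 3. Adjoining PIRs 406 and 403 kb upstream (30240823 and 30243916), between *RBMS3* and *TGFBR2*, were called in replicates 1 and 3, with 7.03 and 5.63 for the first and 5.36 and 5.14 for the second. On the merged replicates the same pairs scored 8.7 and 9.9, above every single replicate. The remaining 5 contacts were called in 1 replicate each and ranged to 133 Mb.

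*TGFBR3* had 5, 4 and 3 contacts in replicates 1, 2 and 3. Of 9, 1 was called in all 3, with the promoter fragment of *CDC7* (chromosome 1, 91961842 to 91967706), a kinase gene of DNA replication 406 kb downstream, at 9.17, 9.1 and 11.95. The block around it, 58.6 kb long, held 8 of the 9 PIRs, and 6 of the 7 calls made in 1 replicate had a call in another replicate within 5 kb. The promoter fragment of *GLMN* and *RPAP2*, 394 kb away, shared 4 PIRs, 44.4% of those of *TGFBR3* and 26.7% of its own 15.

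**Figure D4:**
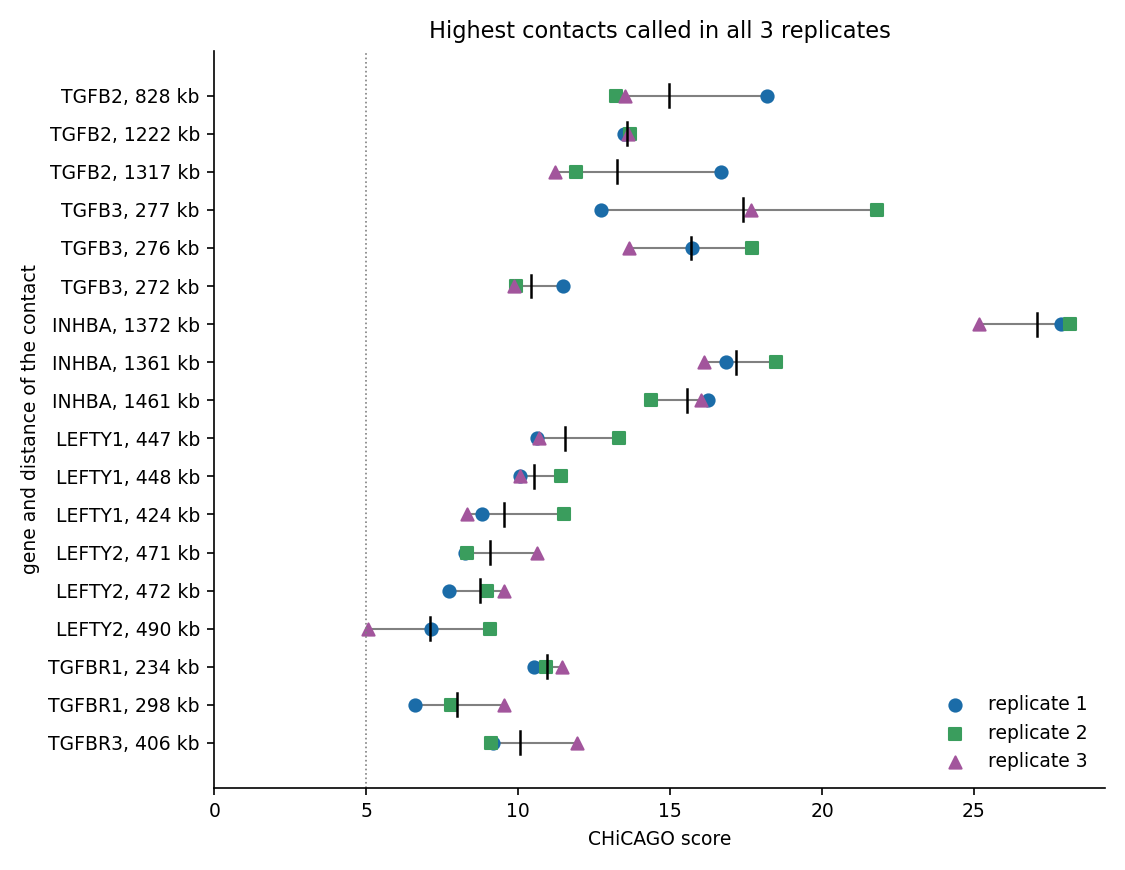
CHiCAGO score (x axis) in each replicate for up to 3 of the highest contacts called in all 3 replicates of each gene, labelled by gene and distance in kb. Symbols are the replicates, black ticks the means and the dotted line the lowest listed score of 5. The replicates of the *TGFB2* contact at 1222 kb lie within 13.47 to 13.67, while those of the *TGFB3* contact at 277 kb spread from 12.74 to 21.82.

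Beyond the 10 genes, a list of 40 other ligands, receptors, SMADs, binding proteins and inhibitors of the pathway was counted in the same way. A contact was listed for 32 of them, and 23 of these 32 (71.9%) had one in all 3 replicates, beside 55.9% of protein-coding genes with a listed contact. These 32 genes had a median of 8 contacts and of 1.5 in all 3 replicates. For the 10 genes the medians were 12 and 3.5, and for all protein-coding genes with a listed contact 7 and 1. No contact was listed for *TDGF1*, *CFC1*, *ACVR1B*, *ENG*, *SMAD2*, *SMAD4*, *LRRC32* or *SMURF2*. The share of all annotated protein-coding genes with a listed contact is not given. Whether 32 of 40 is many or few is therefore not shown.

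The genes of the list with the most contacts were *LTBP1*, *INHBE* and *BAMBI*. *LTBP1*, which tethers latent TGF-beta to the matrix, had 65 contacts and 28 in all 3 replicates, and *THBS1*, which can activate latent TGF-beta, had 28 and 16. Of the inhibitors, *SMAD7* had 41 contacts and 21 in all 3, *SMAD6* 11 and 10, *BAMBI*, a decoy receptor, 55 and 20, and *FST*, which binds activin, 32 and 20. *CER1*, an antagonist of NODAL, also had 32 contacts, but 1 in all 3. Among ligands and receptors *INHBE* had 56 and 36, and *ACVR2A*, an activin receptor, 30 and 9. The counts of *INHBE* are summed over 2 promoter fragments, and a PIR called with both counts once for each. Other genes of the list had fewer. *DAND5*, *TGIF1* and *INHBB* had 1 contact each, *FSTL3* and *ACVR2B* 3 each, *ACVR1C* 5 and *GDF1* 7, with none in all 3 replicates. *PMEPA1* had 2 contacts and 1 in all 3, and *SMURF1* 12 and 2. The highest mean score on the list was 45.5 ± 9.5 (SD, n = 3), for *INHBE* with the fragment of *R3HDM2* at 148 kb. *LTBP1* reached 26.3 ± 1.02 with an intron of *TTC27* at 172 kb, and *FST* 25.6 ± 4.68 with an intron of *ARL15* at 751 kb. *SMAD3*, which carries the TGF-beta and activin signal, had 3 contacts, of which 2 were in all 3 replicates.

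**Figure D5:**
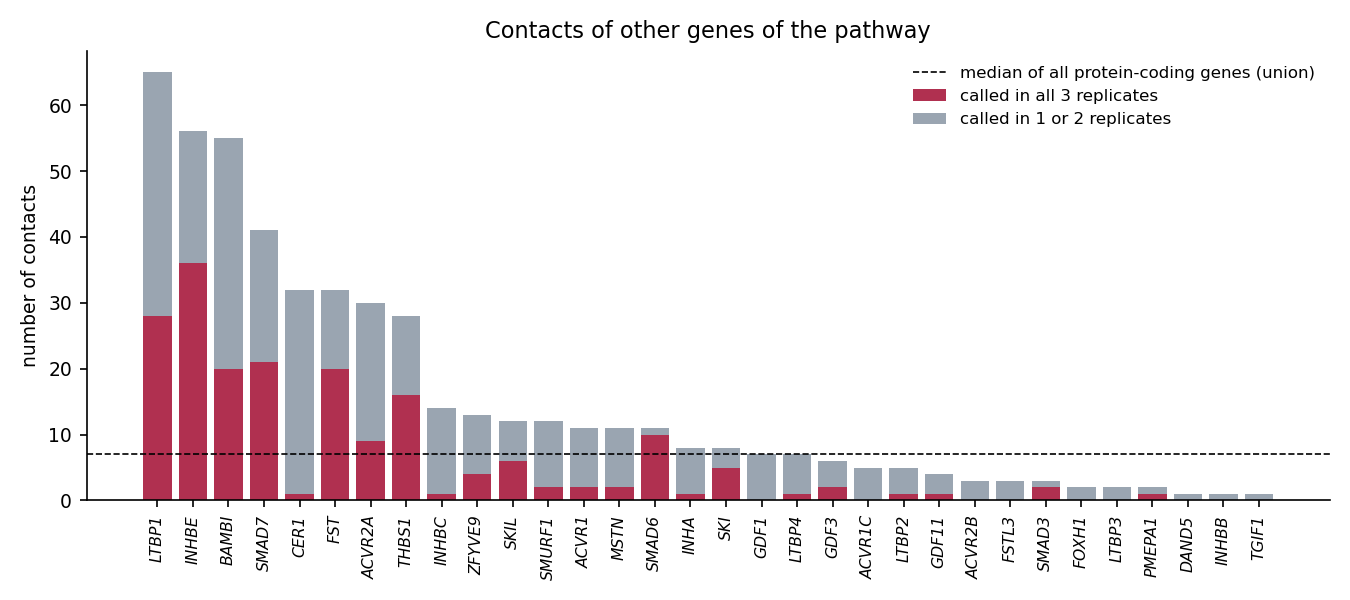
Number of contacts (y axis) of the 32 genes of the pathway list with a listed contact, split into those called in all 3 replicates and those called in 1 or 2. The dashed line is the median of 7 contacts over protein-coding genes with a listed contact. *LTBP1* leads with 65 contacts from 1 promoter fragment. *INHBE* has the most in all 3 replicates, 36, summed over its 2 promoter fragments.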

How the data were processed

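Contacts called by promoter capture Hi-C in 3 biological replicates of hESC-CMs were taken from the tables that the authors deposited. The authors mapped reads with HiCUP and called contacts with CHiCAGO, and each deposited line holds a pair of HindIII fragments of GRCh37 and a CHiCAGO score. The authors' calls on the merged replicates served as an alternative. No read was mapped again, and depth was not analysed here. The score compares read pairs with a background set by distance and by noise of the captured fragment, so scores at different distances or fragments are not contact frequencies. Because the list stops at a score of 5, a contact that scores near 5 can be listed in 1 replicate and be missed in another.

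Genes were taken from GENCODE 44 lifted to GRCh37. A contact was a pair of fragments without regard to order, and the union of the 3 replicates was the main set. Distances are between fragment midpoints, and blocks join PIRs of 1 promoter fragment that lie within 50 kb of each other. Means and SDs are over replicates. With 3 replicates of 1 condition no group test was made. Contacts were said to differ where their replicate ranges did not overlap. Intervals are 95% Wilson intervals.

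The 10 genes, the list of 40 further genes and the motifs were chosen with earlier results of these data known. Named were all of these genes, up to 3 contacts of each of the 10 genes by the number of replicates and then the mean score, PIRs shared by 2 of the 10 genes, and the other promoter fragment that shared the most PIRs. Further contacts named in the text were chosen after their values were seen. A contact of *TGFB1* that this rule names, and a further gene start in 1 promoter fragment, are not reported here.

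Alternatives were scores of at least 7 and of at least 10, the merged calls, each replicate dropped in turn, ordered pairs, matching within 5 kb, the same chromosome, at most 1 Mb, protein-coding starts, and added fragments listed only as interacting ends. Near-identical sequence was searched with minimap2 2.31-r1302. The counting was tested on 1000 simulated contacts, all of which were counted correctly. Python 3.11.15, pandas 2.3.3, pysam 0.24.0, samtools 1.23.1 and matplotlib 3.10.9 were used.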

Additional observations from a re-analysis of the deposited data

How the results depend on the processing

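The number of contacts moved from 146 to 77 with a score of at least 7, to 31 with a score of at least 10 and to 87 within 1 Mb. The share called in all replicates moved from 39.0% to 48.4% with a score of at least 10 and to 67.8% with matching within 5 kb, and with 1 replicate left out it was 48.5 to 57.5% of the contacts of the other 2. The median distance of 588 kb moved to 720 kb with a score of at least 7, 1039 kb with at least 10, 432 kb within 1 Mb and 712 kb with protein-coding starts only. With protein-coding starts only, *LEFTY1* went from 25 contacts to 0 and *INHBA* from 35 to 21. The comparisons of *LEFTY1* with *LEFTY2* and of the 2 *INHBA* fragments cannot be made under that setting. Genes with a contact in all replicates numbered 5 to 8 against 7. Of the list of 40 genes, 14 in place of 32 kept a contact at a score of at least 10. Matching within 5 kb gives no number of contacts or distance, and the merged calls give no share over replicates. No paired analysis between groups was possible because there is 1 group, and differences between promoter fragments at the same PIR were taken within each replicate. Scores near the lowest listed value limit what single-replicate calls show.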

Other observations

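Among the 18 highest contacts named for the 10 genes that were called in all 3 replicates, the score on the merged replicates was above every single replicate for 15. The exceptions among these 18, singled out after their values were seen, were receptor genes. *TGFBR1* with the fragment of *ENSG00000267026* scored 10.21 on the merged replicates, under its 10.51, 10.93 and 11.43 in the single ones. *TGFBR3* with *CDC7* scored 8.61, under 9.17, 9.1 and 11.95, and *TGFBR1* with *GALNT12* scored 7.44, within its range of 6.61 to 9.54. Beyond these 18 contacts, such values were not limited to receptor genes. *LEFTY1* with the fragment of *SRP9* scored 5.09 on the merged replicates, under its 6.91, 5.35 and 5.27. The downstream *INHBA* fragment with the PIR at 40370447 scored 14.72, within its range of 10.08 to 16.16. The merged calls held 10 contacts of *TGFBR2*, against 7 in the union of the replicates, and 34 of *TGFB2* against 25. They held fewer of the other receptor genes, 2 of *TGFBR1* against 8 and 1 of *TGFBR3* against 9, and none of *TGFB1* or *NODAL*.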
